A study of Drosophila melanogaster with 11 samples.

Results

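Wild-type Oregon-R embryos collected 17–17.5 h after egg deposition, in the last hours before hatching, were compared with embryos collected 2–4 h after egg deposition. The libraries were chosen by the collection window in their labels, which gave 5 of the 11 bulk mRNA-seq libraries of the series, 2 at 17–17.5 h and 3 at 2–4 h. Another 2 libraries at 14–14.5 h were used to place a change within the second part of embryogenesis, and the 4 libraries of the broad 14–17 h window were not used. All were polyA-selected RNA of whole embryos from population cages kept at 25°C, with no mutation, transgene or treatment, and the methods describe the replicates as independent collections on different days.

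The libraries were sequenced on HiSeq and NextSeq instruments, and the sources used here do not give the instrument or the preparation date of each library. Windows and library batches therefore cannot be told apart in any comparison below. In whole embryos, a higher level cannot be told apart from a larger number of cells of the type that holds the RNA.

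At 2–4 h the fly embryo passes from RNA loaded into the egg by the mother to transcription of its own genome, forms cells around the nuclei of the syncytium and begins gastrulation. In the last hours before hatching, organs are already formed, and the embryo secretes and hardens the larval cuticle, fills its tracheae with air, starts to move and prepares the gut for feeding. Hormones steer these steps: a pulse of ecdysone in mid-embryogenesis sets off a cascade of nuclear receptors, and neuropeptides later drive the movements of hatching and ecdysis.

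Estimated read counts per gene, which the authors made with Kallisto, were rounded and tested with edgeR's quasi-likelihood F-test, and p-values were adjusted by Benjamini-Hochberg over all genes tested. A gene is called over 4-fold higher or lower where the adjusted p is under 0.05 and the fitted fold change is over 4. Levels are given in RPKM, here reads divided by the exon length of the gene and by the TMM-normalised size of the library, on one scale for all 3 windows. Fold changes are on the log2 scale with the standard error of the fit. Total counts were 32523509 and 31895121 at 17–17.5 h, against 30897611, 14472809 and 31783930 at 2–4 h.

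A few measured facts touch many of the values below. Genes of one window were present at low levels in the libraries of the other, and the amount differed between replicates. The 458 genes that were over 32-fold lower at 17–17.5 h summed to 1.14% of their 2–4 h mean in 17–17.5 h replicate 1 and to 0.64% in replicate 2. The 2256 genes that were over 32-fold higher summed, in 2–4 h replicates 1, 2 and 3, to 0.46%, 0.30% and 0.34% of their 17–17.5 h mean. Both sets were selected by their fold in these same libraries, which by itself keeps the sums low. Only the difference between replicates is read from them here. The count of genes over 4-fold higher was 3914 with replicate 1 of both windows left out and 3940 with all 5 libraries. Markers of adults and ovaries were low: 5 of 24 passed the filter on low counts, and the 24 summed to 1.85 and 1.69 RPKM at 17–17.5 h and to 6.57, 2.94 and 3.75 RPKM at 2–4 h. Among these markers, Acp36DE, SP and the chorion genes Cp15, Cp16, Cp19 and Cp36 were at 0 in both 17–17.5 h libraries. The yolk protein gene Yp3 had 0.132 and 0.0808 RPKM at 17–17.5 h, against 1.73, 0.340 and 0.881 RPKM at 2–4 h, and the eggshell gene dec had 0.110 and 0.105 RPKM, against 0.261, 0.983 and 0.670 RPKM. The share of counts on mt:lrRNA, the large mitochondrial ribosomal RNA, was 2.89% to 3.01% at 17–17.5 h, against 5.37% to 7.40% at 2–4 h. With the mitochondrial genes left out, 3808 genes were over 4-fold higher and 2371 over 4-fold lower, against 3940 and 2129 with them. Kallisto was run on whole gene spans with introns, so where genes overlap the reads were divided between them, often nearly all to one gene. The exons of 42.7% of the tested genes lay under the span of another gene, as did those of 35.5% of the genes over 4-fold higher and 48.4% of those over 4-fold lower. For genes named below, an overlapping gene is given where the annotation holds one, and near-identical copies such as the Lcp65Ag genes share reads too.

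Most of the measured transcriptome differed between the windows. Of 11633 genes tested, 5720 were higher at 17–17.5 h, or 49.2%, and 4916 were lower, or 42.3%. Every 17–17.5 h library was above every 2–4 h library for 5910 genes, or 50.8%, and below for 5091, or 43.8%. Over 4-fold higher were 3940 genes, or 33.9% of those tested, and over 4-fold lower were 2129 genes, or 18.3%. A change in the share of transcripts follows from the selection of these genes by fold, and the shares give its size. Exonic TPM is the share of transcripts in a library, from counts per exon length. The genes over 4-fold higher held 48.4% and 50.02% of it in the 17–17.5 h libraries, against 2.04%, 1.86% and 2.01% in the 2–4 h libraries. The genes over 4-fold lower held 2.25% and 1.89% at 17–17.5 h, against 24.3%, 23.96% and 24.8% at 2–4 h. For the list counts against 2–4 h below, the comparison is the 33.9% over 4-fold higher and 18.3% over 4-fold lower among all tested genes.

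The median log2 fold change over all tested genes was 0.27, with quartiles of −1.48 and 3.71 and a median standard error of 0.125. For 720 of the 3940 genes over 4-fold higher, every 2–4 h library held under 3 counts, and for 371 of the 2129 over 4-fold lower every 17–17.5 h library did, so that their fitted folds depend on the prior count. These genes passed the filter on low counts only through the other window, which sets the direction of their call. With these genes set at the bound that 3 counts allow, the median of the genes over 4-fold higher was 4.94 in place of 5.59. Since so many genes differ, the zero of the fold scale depends on the normalisation. Under other settings, the median shift over genes of the log2 fold change against 2–4 h was between −0.45 and 0.01. Single genes moved by more, and a direction smaller than about that shift is not secure.

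**Figure D1:**
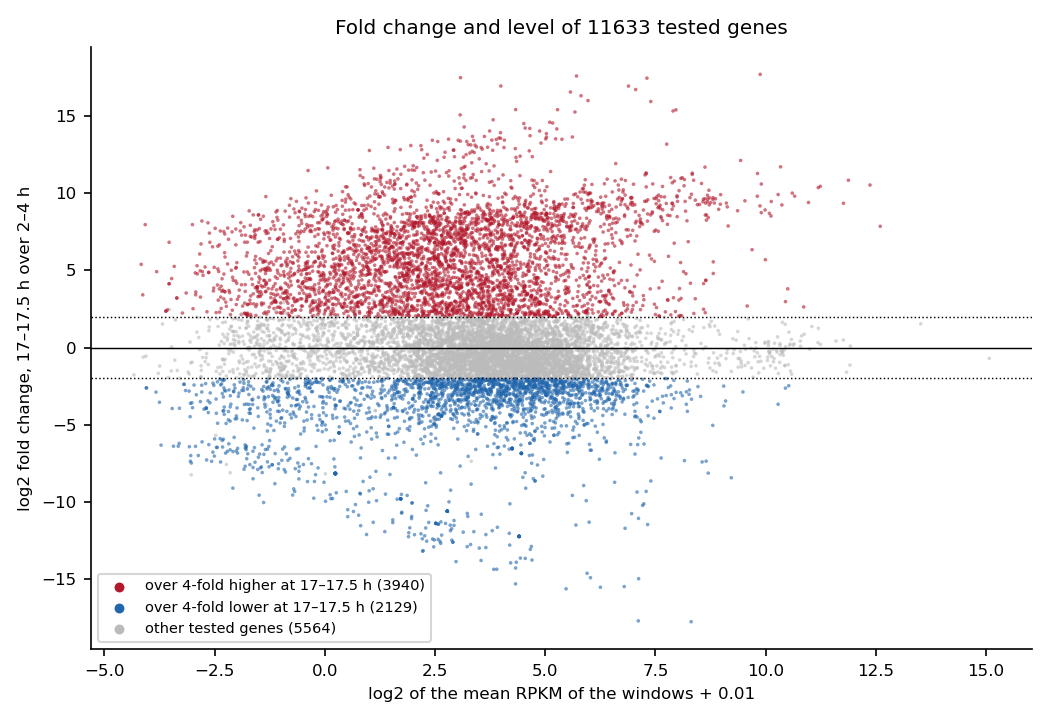
Fitted log2 fold change of 17–17.5 h over 2–4 h (vertical axis) against the log2 of the mean RPKM of the windows (horizontal axis), 1 point per tested gene, with dotted lines at 4-fold. The 3940 genes over 4-fold higher are drawn in red above the upper line and the 2129 over 4-fold lower in blue below the other.

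Genes of the larval body wall and muscles were among the most abundant at 17–17.5 h. Of the 10 genes with the highest level among those over 4-fold higher in non-overlapping windows, Lcp65Ag2, Lcp65Ag3, Cpr47Eg and TwdlN encode larval cuticle proteins and Act57B encodes an actin of the larval muscles. Act57B (chromosome 2R, 20944021 to 20946431, with snoRNA:660 inside it) had 11584 and 13129 RPKM at 17–17.5 h, against 73.6, 31.0 and 57.0 RPKM at 2–4 h. Lcp65Ag2 (chromosome 3L, 6132990 to 6133593) had 9701 and 11423 RPKM at 17–17.5 h, against 12.7, 3.27 and 4.62 RPKM at 2–4 h. Every 17–17.5 h library stood far above every 2–4 h library for both genes, with log2 fold changes of 7.84 ± 0.41 and 10.51 ± 0.59 (adjusted p = 2.8e-06 and 4.1e-06).

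Lcp65Ag3, which overlaps asRNA:CR46005, had 6303 and 7606 RPKM at 17–17.5 h, against 17.5, 3.04 and 9.97 RPKM at 2–4 h. The other genes among these 10 include some without a described role here. CG13731 had 6688 and 8353 RPKM at 17–17.5 h, against 8.01, 1.45 and 2.74 RPKM at 2–4 h. CG10953 and CG30457, which lie near each other on chromosome 2R, had 4495 and 5173 RPKM and 4364 and 4998 RPKM at 17–17.5 h, and between 0.688 and 6.20 RPKM at 2–4 h. CG5023 had 2837 and 3383 RPKM at 17–17.5 h, against 4.71, 0 and 3.29 RPKM at 2–4 h. Vha16-1, which encodes a membrane subunit of the vacuolar proton pump, differed from the rest in being well expressed early too, with 2666 and 2741 RPKM at 17–17.5 h, against 205.4, 181 and 198 RPKM at 2–4 h.

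**Figure D2:**
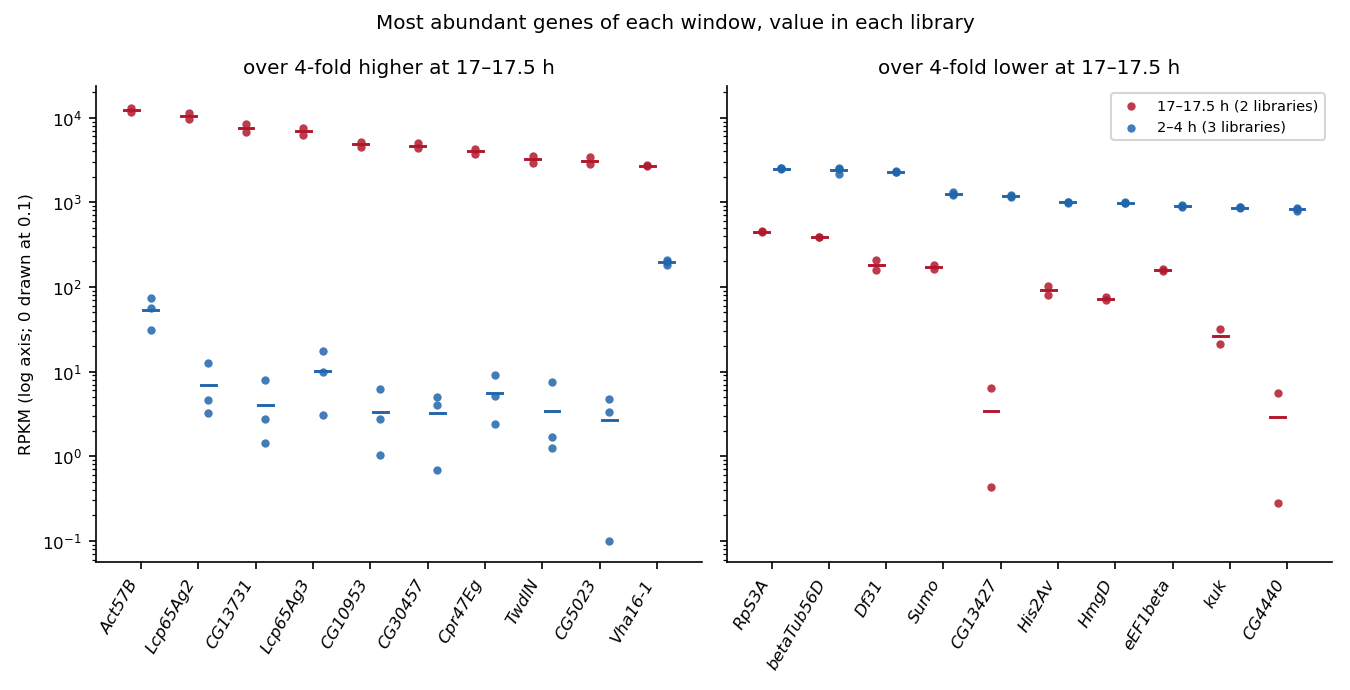
RPKM (log axis) of the 10 genes with the highest level among those over 4-fold higher at 17–17.5 h and of the 10 with the highest level among those over 4-fold lower, 1 point per library, 17–17.5 h and 2–4 h. No gene shown overlaps between the windows, and Act57B reaches 13129 RPKM at 17–17.5 h.

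The tested cuticle protein genes rose almost as a whole. Cuticle proteins bind chitin and give the larval exoskeleton its stiffness, and 88 of the 93 tested members, out of 122 in all, were over 4-fold higher, with 0 over 4-fold lower. Their summed level was 35627 and 41270 RPKM at 17–17.5 h, against 138, 59.7 and 46.6 RPKM at 2–4 h. Over all tested genes, 33.9% were over 4-fold higher and 18.3% over 4-fold lower. Of the 93 tested members, 24 had under 3 counts in every 2–4 h library. They passed the filter on low counts only through 17–17.5 h, which sets the direction of their call. The median log2 fold change was 7.71, or 6.46 with these 24 at their bound, beside 0.27 over all tested genes.

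Genes that make and order chitin and that tan the cuticle followed. Of 21 chitin genes, 19 were over 4-fold higher. The chitinase gene Cht5, which acts in the turnover of chitin, had 234 and 254 RPKM at 17–17.5 h, against 0.557, 0.150 and 0.355 RPKM at 2–4 h. Of the tanning and pigment genes, 13 of 19 tested were over 4-fold higher and 1, yellow-e3, was over 4-fold lower. The pale gene ple encodes tyrosine hydroxylase, which starts the synthesis of the catecholamines that harden and darken cuticle, and had 60.7 and 69.3 RPKM at 17–17.5 h, against 0.220, 0.05004 and 0.0367 RPKM at 2–4 h. Its log2 fold change was 9.16 ± 0.29 (adjusted p = 3.3e-07). The gene y, which overlaps CG32816 and serves black pigment, had 70.5 and 74.95 RPKM at 17–17.5 h, against 0.637, 0.0311 and 0.561 RPKM at 2–4 h. The gene that fell, yellow-e3, had 0.428 and 0.257 RPKM at 17–17.5 h, against 30.7, 30.9 and 29.4 RPKM at 2–4 h. The enzyme genes Ddc (overlapping CG10561) and e, chosen after their values were seen, moved the same way, with 29.7 and 31.8 RPKM for Ddc and 22.5 and 24.04 RPKM for e at 17–17.5 h, and under 0.3 RPKM in each 2–4 h library.

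Nearly every tested muscle gene rose. Of 31 tested contractile protein genes, 30 were over 4-fold higher, with a summed level of 26526 and 30313 RPKM at 17–17.5 h, against 316, 222 and 264 RPKM at 2–4 h. Mlc2, a myosin light chain gene, had 2049 and 2399 RPKM at 17–17.5 h, against 10.4, 3.17 and 4.48 RPKM at 2–4 h. The 2–4 h libraries differed among themselves here, with replicate 1 the highest for Mlc2, Act57B and Lcp65Ag2.

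Genes of synaptic transmission rose as well. Of 35 genes for the synaptic vesicle cycle and the active zone, 28 were over 4-fold higher and 34 were higher, with a median log2 fold change of 6.64, or 4.84 with overlapping genes left out. The vesicle fusion gene nSyb had 176 and 186 RPKM at 17–17.5 h, against 0.956, 0.904 and 0.788 RPKM at 2–4 h (log2 fold change 7.68 ± 0.10, adjusted p = 4.4e-08). The small GTPase gene Rab3, which acts at the vesicle, had 106 and 110 RPKM at 17–17.5 h, against 1.01, 1.10 and 0.958 RPKM at 2–4 h. The scaffold gene brp and the GABA-synthesis gene Gad1, both chosen after their values were seen, had 47.6 and 50.04 RPKM and 52.9 and 55.8 RPKM at 17–17.5 h, and at most 0.224 RPKM in a 2–4 h library. Gad1 overlaps CG14989.

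Peptide signalling genes moved in the same direction. Of 25 genes for ecdysis peptides, their processing enzymes and receptors, 22 were over 4-fold higher, and 8 of the 25 had under 3 counts in every 2–4 h library. These 8 passed the filter on low counts only through 17–17.5 h, which sets the direction of their call. Dh31, a diuretic hormone gene, had 63.6 and 63.7 RPKM at 17–17.5 h, against 1.05, 2.30 and 1.08 RPKM at 2–4 h. Phm encodes an enzyme that amidates neuropeptides and had 51.9 and 51.5 RPKM at 17–17.5 h, against 11.7, 11.2 and 11.3 RPKM at 2–4 h, with part of its sequence under Sox14. The ecdysis hormone genes themselves, chosen after their values were seen, were at low levels. Eh, the eclosion hormone gene, had 78 and 58 counts at 17–17.5 h, against 0, 0 and 1 count at 2–4 h. Burs, which encodes a subunit of the tanning hormone bursicon, had 91 and 99 counts at 17–17.5 h, against 0, 0 and 2 counts at 2–4 h. ETH, the ecdysis-triggering hormone gene, stood at 16.4 and 16.5 RPKM at 17–17.5 h, against 4.39, 3.36 and 4.07 RPKM at 2–4 h, and overlaps asRNA:CR43257.

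Sensory genes were mixed. Of 223 receptor and mechanosensory genes, 71 passed the filter on low counts, 87 stayed below 3 counts in each of the 5 libraries, 26 were over 4-fold higher and 16 over 4-fold lower. The shares, 36.6% and 22.5% of the tested members, lie near the 33.9% and 18.3% of all genes. The list's median log2 fold change, 0.18, depended on the setting, at −0.19 with overlapping genes left out and 1.395 with DESeq2. The count over 4-fold higher was 15 with overlapping genes left out, 37 with DESeq2 and 44 with no filter. The nociception channel gene pain (overlapping NaCP60E) had 31.2 and 32.6 RPKM at 17–17.5 h, against 0.237, 0.0626 and 0.156 RPKM at 2–4 h, and nompA (overlapping CG43114), which links sense-organ dendrites to the cuticle, had 10.8 and 11.7 RPKM at 17–17.5 h, against 0.0606, 0.0849 and 0.0160 RPKM at 2–4 h. In the other direction, ppk8 was at 0 in both 17–17.5 h libraries and at 0.432, 0.460 and 0.216 RPKM at 2–4 h, but it lies under CG2875 and DIP-alpha. Orco, the coreceptor of the odorant receptors, had 112 and 114 counts at 17–17.5 h, against 0, 0 and 1 count at 2–4 h, and was named after its values were seen.

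Odorant-binding proteins, small secreted carriers, gave a list with most calls in one direction. Of 51 members, 26 were tested, with 22 over 4-fold higher and 4 over 4-fold lower. Of those tested, 10 had under 3 counts in every 2–4 h library and 2 in every 17–17.5 h library. Such genes passed the filter on low counts only through the other window, which sets the direction of their call. The median log2 fold change was 5.98, or 4.10 with them at their bound. Obp44a had 213 and 210 RPKM at 17–17.5 h, against 2.04, 1.42 and 1.89 RPKM at 2–4 h, and overlaps Pabp2. Obp28a had 164 and 167 RPKM at 17–17.5 h, against 0.150, 0 and 0.291 RPKM at 2–4 h. Of the 4 that were lower, Obp73a was at 0 in both 17–17.5 h libraries, against 177, 300 and 188 RPKM at 2–4 h, or at least 1833-fold lower by a floor of 3 counts per library. Obp73a lies under Cpr73D and Ogdh, and its value is uncertain. Obp99a, which overlaps no gene, had 20.9 and 20.8 RPKM at 17–17.5 h, against 180, 173 and 208 RPKM at 2–4 h. Without 17–17.5 h replicate 1, 2 tested members were over 4-fold lower.

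**Figure D3:**
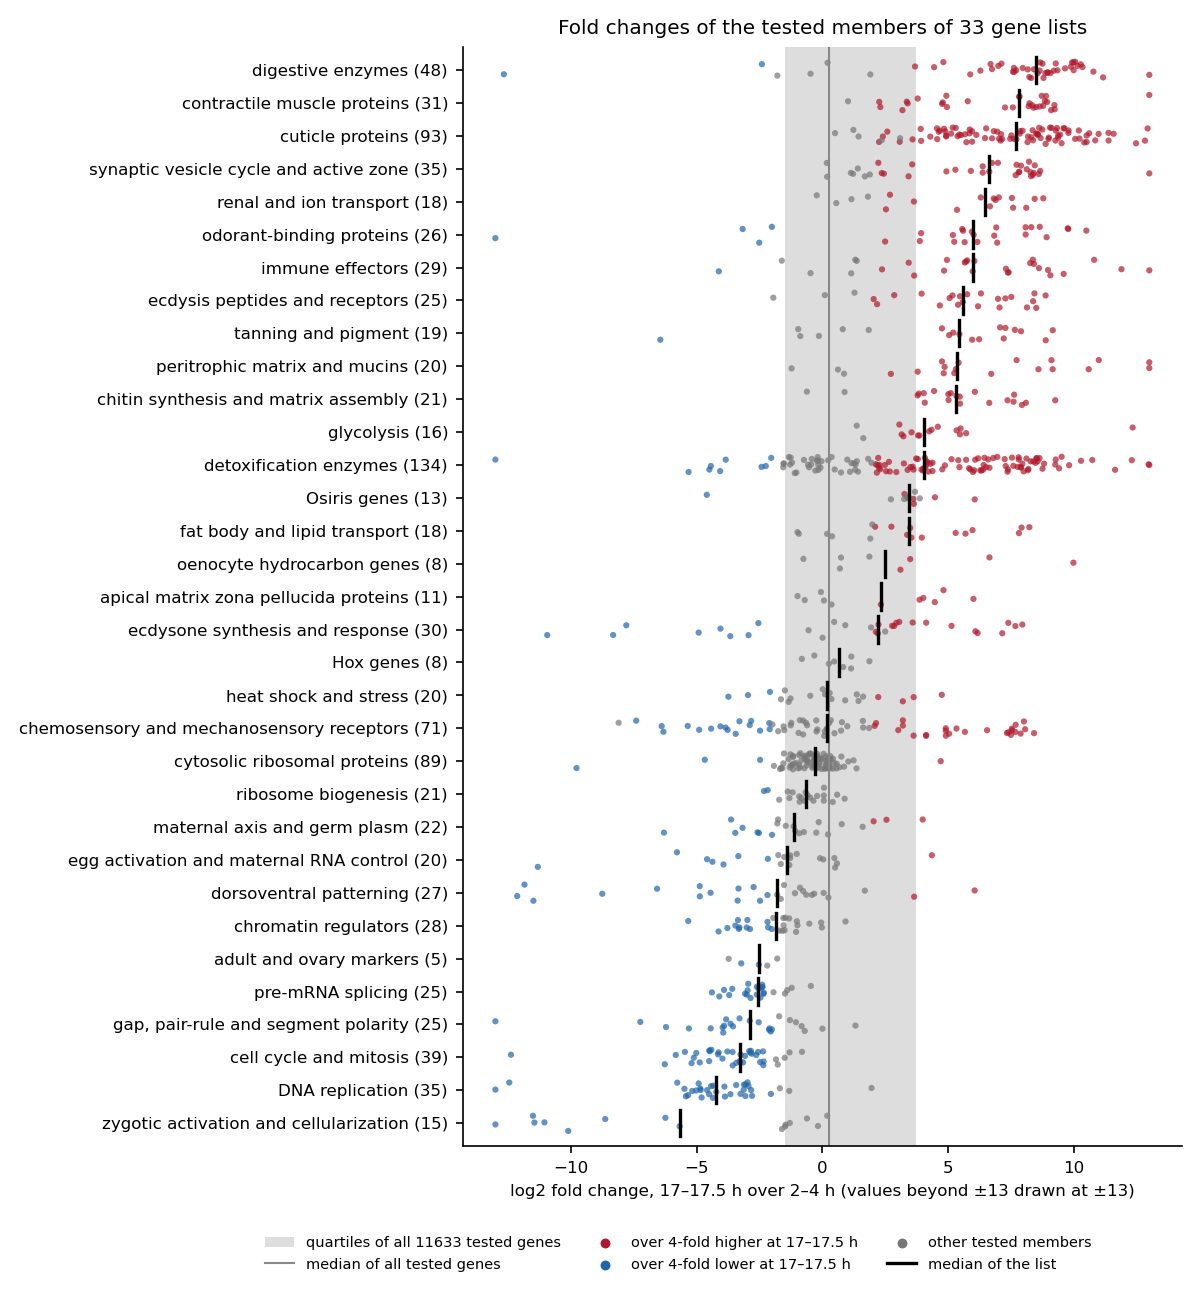
Log2 fold changes, 17–17.5 h over 2–4 h, of the tested members of 33 gene lists (number tested in parentheses), 1 point per gene, with the median of each list as a black bar and the quartiles of all 11633 tested genes as a grey band. Medians run from 8.48 for digestive enzymes to −5.67 for zygotic activation and cellularization.

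Most genes of the feeding gut rose. Of 48 tested digestive enzyme genes, 42 were over 4-fold higher and 2 over 4-fold lower, beside 33.9% and 18.3% of all tested genes. Among the 48, 11 had under 3 counts in every 2–4 h library and 1 in every 17–17.5 h library. They passed the filter on low counts only through the other window, which sets the direction of their call. The median log2 fold change of the list was 8.48, or 7.66 with the members below the floor at their bound. The summed level of the list was 3589 and 3298 RPKM at 17–17.5 h, against 75.7, 67.0 and 76.1 RPKM at 2–4 h. The serine protease gene Jon65Aiv (chromosome 3L, 6039155 to 6040135) had 546 and 503 RPKM at 17–17.5 h, against 0.542, 0.0702 and 0.556 RPKM at 2–4 h, and Jon99Ciii, which shares reads with close copies, had 331 and 284 RPKM, against 0.209, 0 and 0.113 RPKM. Trypsin gene alphaTry, named after its values were seen, had 179 and 171 RPKM at 17–17.5 h, against 0.603, 0 and 0.357 RPKM at 2–4 h. Mal-B2 went the other way, with 0 counts in both 17–17.5 h libraries and 11.2, 13.1 and 12.8 RPKM at 2–4 h, and lies under Pde1c.

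Genes for the lining of the gut rose too. Of 20 tested genes for the peritrophic matrix and mucins, which coat the gut wall, 17 were over 4-fold higher and 0 over 4-fold lower. The shares over all tested genes were 33.9% and 18.3%. A total of 4 of the 20 had under 3 counts in every 2–4 h library. These 4 passed the filter on low counts only through 17–17.5 h, which sets the direction of their call. Muc26B had 1800 and 1941 RPKM at 17–17.5 h, against 3.75, 1.10 and 4.38 RPKM at 2–4 h. Muc18B had 451 and 469 RPKM at 17–17.5 h, against 0.327, 0.111 and 0.170 RPKM at 2–4 h.

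Genes of excretion, detoxification and defence were mostly higher. Of 18 tested renal and ion transport genes, 14 were over 4-fold higher. The potassium channel gene Irk2 had 74.8 and 74.0 RPKM at 17–17.5 h, against 0.312, 0.0254 and 0.201 RPKM at 2–4 h, and the anion exchanger gene Ae2 had 90.3 and 90.4 RPKM, against 15.02, 13.3 and 13.7 RPKM. Of 134 tested cytochrome P450, glutathione transferase and UDP-glycosyltransferase genes, 89 were over 4-fold higher and 9 over 4-fold lower. The shares over all tested genes were 33.9% and 18.3%. Among the 134, 18 had under 3 counts in every 2–4 h library and 1 in every 17–17.5 h library. They passed the filter on low counts only through the other window, which sets the direction of their call. Cyp28d1 had 221 and 223 RPKM at 17–17.5 h, against 0.749, 0.393 and 0.604 RPKM at 2–4 h, and overlaps CG7742. GstD1 had 158 and 149 RPKM at 17–17.5 h, against 13.4, 13.03 and 16.9 RPKM at 2–4 h.

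Cyp310a1 was the member of that list with the largest fold in the other direction, at 0 in both 17–17.5 h libraries and at 36.7, 46.1 and 38.9 RPKM at 2–4 h, and lies under MESR3. Of 52 immune effector genes, 29 were tested, with 23 over 4-fold higher and 1 over 4-fold lower. A total of 14 tested members had under 3 counts in every 2–4 h library and passed the filter only through 17–17.5 h. The median log2 fold change was 5.98, or 3.60 with these 14 at their bound. BomS3, a Bomanin peptide gene, had 190 and 198 RPKM at 17–17.5 h, with 3, 0 and 0 counts at 2–4 h. Tep4, which encodes a thioester protein, had 49.97 and 54.02 RPKM at 17–17.5 h, against 4.32, 3.82 and 4.20 RPKM at 2–4 h. The phenoloxidase gene PPO3 was lower, at 0.0633 and 0.0339 RPKM at 17–17.5 h, against 0.789, 0.912 and 0.952 RPKM at 2–4 h.

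Genes of glycolysis and lipid metabolism rose. All 16 glycolysis genes were higher, 14 of them over 4-fold, with a summed level of 2840 and 2948 RPKM at 17–17.5 h, against 200.1, 185 and 216 RPKM at 2–4 h. Gapdh2 had 521 and 532 RPKM at 17–17.5 h, against 10.9, 8.23 and 15.1 RPKM at 2–4 h, and Ald1, which overlaps asRNA:CR44321, had 455 and 481 RPKM, against 54.7, 56.2 and 57.1 RPKM. The fat body and lipid transport list had 12 of 18 tested genes over 4-fold higher and 0 over 4-fold lower. The fatty acid synthase gene FASN1 had 152 and 152 RPKM at 17–17.5 h, against 0.808, 0.319 and 0.785 RPKM at 2–4 h, and Lpin, which encodes a lipid phosphatase and overlaps kermit, had 79.4 and 84.5 RPKM, against 7.62, 6.001 and 7.39 RPKM. Of 8 tested oenocyte hydrocarbon genes, which serve the waxy layer of the cuticle, 4 were over 4-fold higher, among them the desaturase gene Desat1 with 146 and 147 RPKM at 17–17.5 h, against 16.9, 17.1 and 17.1 RPKM at 2–4 h. The elongase gene bond had 115.2 and 146 RPKM at 17–17.5 h, against 0.210, 0.0990 and 0.0580 RPKM at 2–4 h, and overlaps asRNA:CR44062.

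Ecdysone genes were called in both directions. Of 30 tested, 16 (53.3%) were over 4-fold higher and 8 (26.7%) over 4-fold lower, beside 33.9% and 18.3% of all tested genes. Eip75B encodes a nuclear receptor induced by ecdysone (chromosome 3L, 17950953 to 18064696) and had 54.3 and 59.3 RPKM at 17–17.5 h, against 1.81, 1.22 and 1.74 RPKM at 2–4 h (log2 fold change 5.14 ± 0.17, adjusted p = 3.5e-07). The nuclear receptor gene Hr78, which overlaps asRNA:CR43933, had 42.1 and 47.3 RPKM at 17–17.5 h, against 4.92, 5.17 and 5.94 RPKM at 2–4 h.

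Most genes for the enzymes that make ecdysone fell, and these were named after their values were seen. The Halloween gene dib had 0.214 and 0.0382 RPKM at 17–17.5 h, against 28.6, 30.8 and 28.2 RPKM at 2–4 h, with wit as its overlapping gene. The enzyme gene phtm, which overlaps no gene, had 2.59 and 2.57 RPKM at 17–17.5 h, against 19.6, 20.1 and 19.6 RPKM at 2–4 h. The enzyme genes spo, sad and sro, which overlap l(3)psg2, CG6962 and Rnb, were over 4-fold lower too, while spok and shd were over 4-fold higher: shd, which makes the active hormone in the target tissues, had 1.68 and 2.10 RPKM at 17–17.5 h, against 0.306, 0.421 and 0.564 RPKM at 2–4 h. The receptor partner gene usp was at 0 in both 17–17.5 h libraries and at 2.39, 2.57 and 3.59 RPKM at 2–4 h, but it lies under Actn and CG4313, so its value is uncertain.

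The comparison with 14–14.5 h placed these changes in time. Of 11267 genes tested between 17–17.5 h and 14–14.5 h, 3607 were higher at 17–17.5 h, or 32.0%, and 3554 were lower, or 31.5%, with 953 over 4-fold higher, or 8.46%, and 508 over 4-fold lower, or 4.51%. For the list counts against 14–14.5 h below, these shares of all tested genes are the comparison. The test against 14–14.5 h shares the 2 libraries at 17–17.5 h with the comparison against 2–4 h. Of the 3940 genes over 4-fold higher than at 2–4 h, 2345 were also higher than at 14–14.5 h, 777 were lower and 818 passed neither test. A total of 869 were over 4-fold higher than in both other windows.

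Most digestive enzyme genes were higher than at 14–14.5 h as well. Of 47 tested, 43 were higher, 35 over 4-fold, with a median log2 fold change of 3.68 beside −0.04 over all tested genes. Their summed level was 75.7, 67.0 and 76.1 RPKM at 2–4 h, 403 and 475 RPKM at 14–14.5 h, and 3589 and 3298 RPKM at 17–17.5 h. The same order held for the gut mucin gene Muc26B, with 158 and 166 RPKM at 14–14.5 h between its values in the other windows. Glycolysis genes rose again, 16 of 16, with a median of 1.11. Of the glycerol phosphate shuttle, Gpdh1 (overlapping lncRNA:CR44986) had 215 and 228 RPKM at 17–17.5 h, against 18.6 and 21.6 RPKM at 14–14.5 h, and Gpo1 had 156 and 162 RPKM, against 24.2 and 26.6 RPKM. Both were named after their values were seen.

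Muscle and synaptic genes differed by small amounts between the late windows. Over all tested genes, 32.0% were higher and 31.5% lower than at 14–14.5 h, with a median log2 fold change of −0.04. The shares over 4-fold higher and over 4-fold lower were 8.46% and 4.51%. Of 31 tested muscle genes, 19 were higher and 3 lower than at 14–14.5 h, with 1 over 4-fold higher and a median log2 fold change of 0.37. That 1 was Zasp66, which encodes a protein of the Z-disc, with 901 and 1054 RPKM at 17–17.5 h, against 148 and 144 RPKM at 14–14.5 h. The synaptic list had 24 of 35 genes higher and 1 lower, with 0 over 4-fold in either direction and a median of 0.39. Among ecdysis genes, 15 of 25 were higher than at 14–14.5 h and 5 were over 4-fold higher. Dh31 was at 9.66 and 11.3 RPKM at 14–14.5 h, and Dh44, a diuretic hormone gene, had 46.98 and 48.001 RPKM at 17–17.5 h, against 5.31 and 6.14 RPKM at 14–14.5 h.

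The cuticle list was divided within itself. Of 107 tested members, 47 were higher at 17–17.5 h than at 14–14.5 h and 46 were lower, with 29 over 4-fold in each direction. Over all tested genes, 32.0% were higher and 31.5% lower, with 8.46% over 4-fold higher and 4.51% over 4-fold lower. The median of the list was −0.02, beside −0.04 over all tested genes. Its sum differed little, at 35627 and 41270 RPKM at 17–17.5 h, against 33056 and 33508 RPKM at 14–14.5 h. Cpr47Eg had 3712 and 4316 RPKM at 17–17.5 h, against 273 and 292 RPKM at 14–14.5 h. TwdlN had 2951 and 3505 RPKM at 17–17.5 h, against 406 and 456 RPKM at 14–14.5 h. Cpr65Ea was the reverse, with 77.2 and 65.5 RPKM at 17–17.5 h, against 4370 and 4391 RPKM at 14–14.5 h, while standing at 6.46, 5.17 and 0 RPKM at 2–4 h.

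Most chitin genes were lower than at 14–14.5 h. Of 21, 5 were higher and 16 lower. The sum of the list was 1293 and 1374 RPKM at 17–17.5 h, against 5772 and 5809 RPKM at 14–14.5 h. Gasp, which encodes a chitin-binding protein, had 72.8 and 58.6 RPKM at 17–17.5 h, against 2344 and 2318 RPKM at 14–14.5 h, and verm, a chitin deacetylase gene, had 149 and 156 RPKM, against 593 and 605 RPKM. Cht5 ran against them, with 6.43 and 8.48 RPKM at 14–14.5 h. CG13159 and CG15022 had the highest 14–14.5 h levels among the genes that were over 4-fold lower afterwards but over 4-fold higher than at 2–4 h, with 77.9 and 11.9 RPKM for CG13159 at 17–17.5 h, against 13199 and 11923 RPKM at 14–14.5 h, and 47.7 and 18.1 RPKM for CG15022, against 6691 and 6553 RPKM. Against 2–4 h, where CG13159 had 17.0, 4.04 and 8.16 RPKM, its log2 fold change of 2.13 (adjusted p = 0.043, edgeR) was 0.26 and passed no test without 17–17.5 h replicate 1.

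The Osiris genes, a family of insect transmembrane proteins transiently expressed in cuticle-forming cells, were far lower in one 17–17.5 h library than in the other. Their summed level was 25.2, 1.92 and 0.806 RPKM at 2–4 h, 4124 and 4166 RPKM at 14–14.5 h and 240.3 and 18.7 RPKM at 17–17.5 h. Against 14–14.5 h, 14 of 16 tested members were lower and 0 higher. Osi15 had 37.2 and 0.612 RPKM at 17–17.5 h, against 2383 and 2299 RPKM at 14–14.5 h (log2 fold change −6.95 ± 1.52, adjusted p = 0.0088). With a single library at 14–14.5 h the log2 fold change was −6.92 or −6.98, and this smaller design did not pass the test. Against 2–4 h, 5 of 13 tested members were over 4-fold higher, with a median log2 fold change of 3.46, but this rests on replicate 1 of 17–17.5 h: without it the median was −1.41 and the log2 fold change of Osi15 was −0.39 in place of 4.48. The count of members over 4-fold higher was 8 without 2–4 h replicate 1, 12 with the replicate number as a block in the fit and 10 with all 11 libraries. Osi2 was alike in both 17–17.5 h libraries, with 13.2 and 13.6 RPKM, against 0.431, 0.109 and 0.0160 RPKM at 2–4 h. Of the family, Osi21 was over 4-fold lower than at 2–4 h, with 1 and 0 counts at 17–17.5 h against 14, 12 and 19 counts, and lies under mre11.

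**Figure D4:**
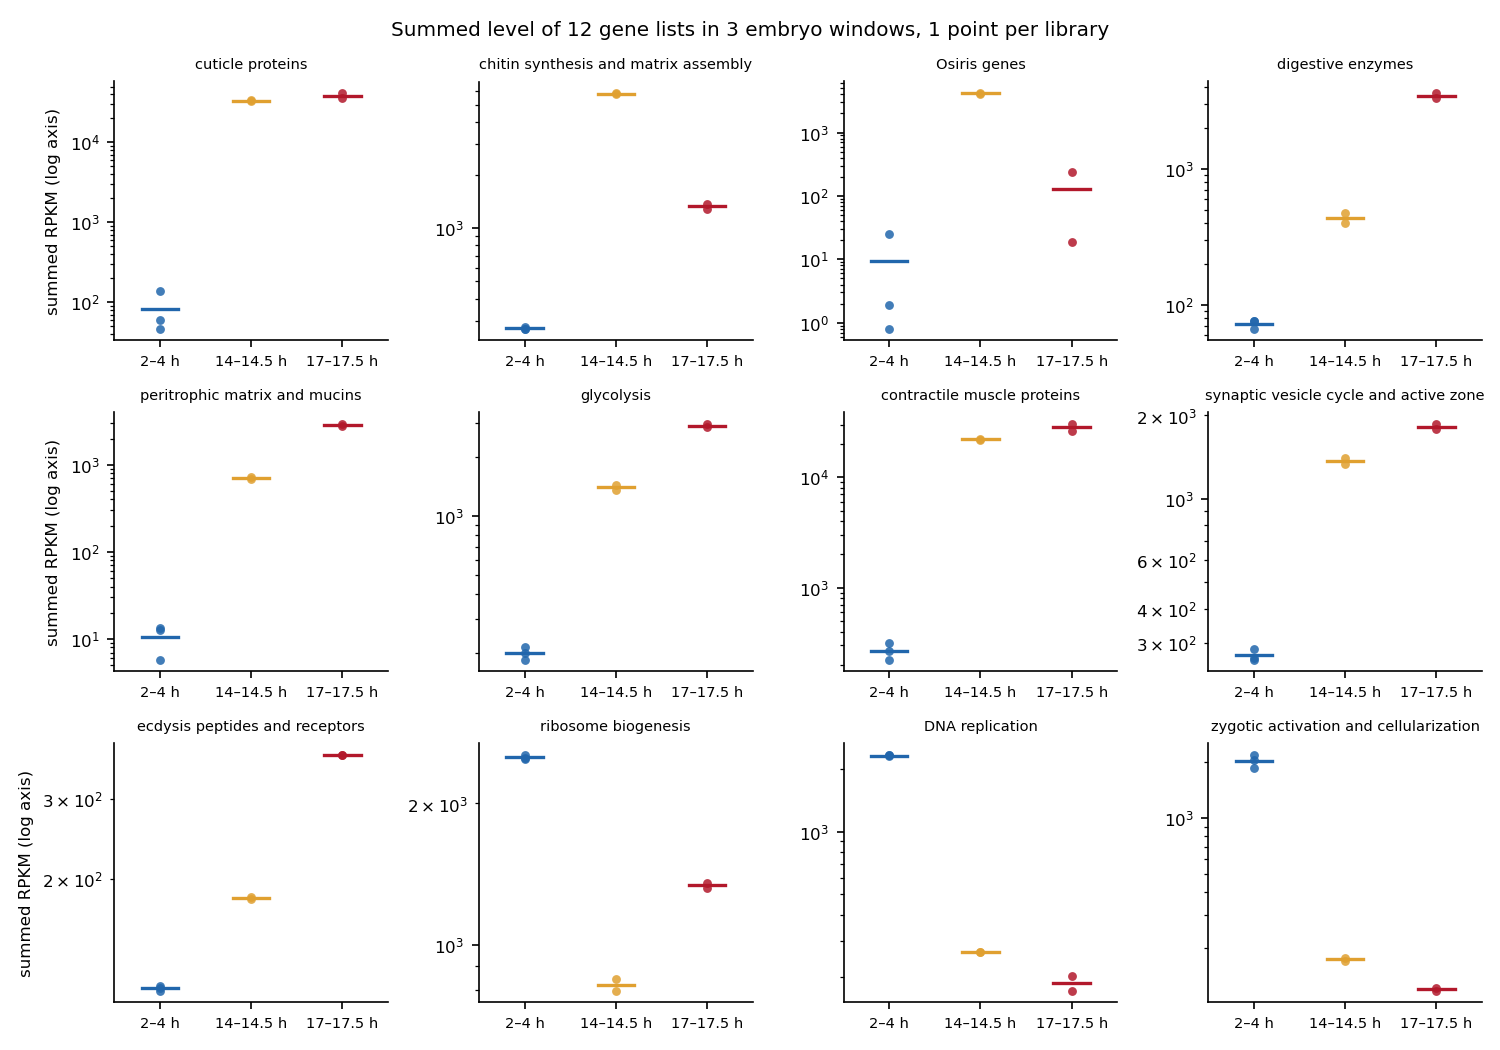
Summed RPKM (log axes that differ between panels) of 12 gene lists at 2–4 h, 14–14.5 h and 17–17.5 h, 1 point per library and a bar at the mean. Digestive enzymes reach 3589 and 3298 RPKM in the last window, while the Osiris genes reach 4124 and 4166 RPKM at 14–14.5 h.

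The apical matrix proteins with a zona pellucida domain included genes of both courses. Against 2–4 h, 6 of 11 (54.5%) were over 4-fold higher and 0 over 4-fold lower, beside 33.9% and 18.3% of all tested genes. The gene pio had 79.9 and 90.5 RPKM at 17–17.5 h, against 3.05, 2.98 and 3.02 RPKM at 2–4 h, and qsm had 48.2 and 55.2 RPKM, against 2.46, 2.31 and 2.21 RPKM. Against 14–14.5 h, 4 of the 11 were higher and 5 lower, beside 32.0% and 31.5% of all tested genes. A list of 11 is too small to set either split apart from that of all genes. Of those lower, zye, chosen after its values were seen, had 32.96 and 31.2 RPKM at 17–17.5 h, against 184 and 180 RPKM at 14–14.5 h.

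Ecdysone genes differed in course between the late windows. Against 14–14.5 h, 9 of 28 tested members of the list were higher and 10 lower, shares near the 32.0% and 31.5% of all tested genes. Eip75B was at 3.26 and 3.03 RPKM at 14–14.5 h, above its values at 2–4 h and below those at 17–17.5 h (log2 fold change against 14–14.5 h 4.17 ± 0.08, adjusted p = 1.7e-06). The next genes were named after their values were seen. The nuclear receptor gene ftz-f1 (overlapping lncRNA:CR45939), which acts downstream of the ecdysone pulse, had 21.0, 19.3 and 20.2 RPKM at 2–4 h, 379 and 331 RPKM at 14–14.5 h and 39.0 and 36.9 RPKM at 17–17.5 h. Cyp18a1, whose enzyme inactivates ecdysone, had 8.01 and 8.86 RPKM at 17–17.5 h, against 82.1 and 84.7 RPKM at 14–14.5 h. Kr-h1, a target of juvenile hormone that overlaps CG45075, had 3.87 and 4.44 RPKM at 17–17.5 h, against 0.401 and 0.378 RPKM at 14–14.5 h. The windows did not overlap for any of these 4 genes.

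**Figure D5:**
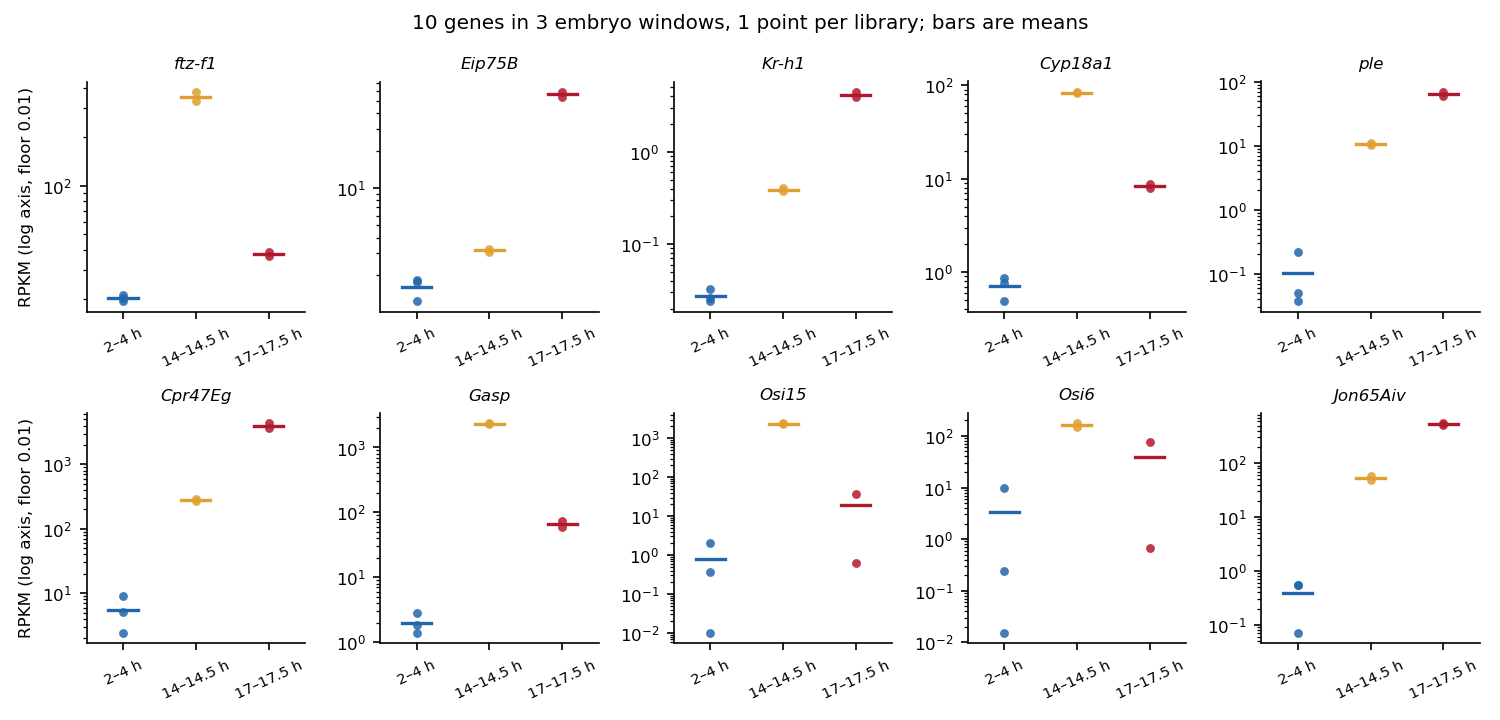
RPKM (log axes) of single genes at 2–4 h, 14–14.5 h and 17–17.5 h, 1 point per library and a bar at the mean. Eip75B and the digestive and cuticle genes of the last hours are highest at 17–17.5 h, and ftz-f1, at 379 and 331 RPKM, is highest at 14–14.5 h.

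Genes that divide cells and copy DNA fell. All 39 cell cycle and mitosis genes were lower at 17–17.5 h than at 2–4 h, 34 of them over 4-fold, beside 42.3% and 18.3% of all tested genes. Their summed level was 443 and 332 RPKM at 17–17.5 h, against 4009.5 to 4049.9 RPKM at 2–4 h. CycA, a mitotic cyclin gene, had 24.04 and 17.4 RPKM at 17–17.5 h, against 365, 366 and 371 RPKM at 2–4 h, and CycB had 84.4 and 58.0 RPKM, against 515, 514 and 525 RPKM. Of 35 replication genes, 32 were over 4-fold lower and 34 were lower. RnrS, a ribonucleotide reductase gene (chromosome 2R, 11983145 to 11985393), had 6.77 and 5.80 RPKM at 17–17.5 h, against 274, 292 and 279 RPKM at 2–4 h (log2 fold change −5.48 ± 0.10, adjusted p = 6e-08). PCNA, the sliding clamp gene, had 10.8 and 9.20 RPKM at 17–17.5 h, against 276, 286 and 277 RPKM at 2–4 h.

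The decline of the replication genes went on after 14–14.5 h, where 17 of 33 tested were lower at 17–17.5 h and 0 higher. RnrS was at 21.0 and 21.9 RPKM and PCNA at 27.6 and 26.8 RPKM at 14–14.5 h. For cell cycle genes, 11 of 39 were lower than at 14–14.5 h and 5 higher, beside 31.5% and 32.0% of all tested genes. Their median log2 fold change was −0.08, beside −0.04 over all tested genes, so a further fall did not show for this list.

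Genes that handle chromatin and RNA in the nucleus fell as well. Of 25 tested splicing genes, all were lower at 17–17.5 h than at 2–4 h and 20 were over 4-fold lower, and 20 were lower than at 14–14.5 h. The helicase gene Hel25E had 33.6 and 24.3 RPKM at 17–17.5 h, against 426, 449 and 431 RPKM at 2–4 h, and the splicing factor gene x16 had 34.9 and 28.3 RPKM, against 377, 381 and 377 RPKM. Of 28 tested chromatin regulators, 13 were over 4-fold lower. His2Av, the histone variant gene, had 102 and 79.6 RPKM at 17–17.5 h, against 989, 1013 and 999.6 RPKM at 2–4 h, and HmgD, whose reads are shared with HmgZ, had 75.5 and 69.4 RPKM, against 970.0, 1018 and 986 RPKM.

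The patterning genes of the early embryo were lower in most cases. Of 25 gap, pair-rule and segment polarity genes, 18 were over 4-fold lower and 23 were lower. The pair-rule genes opa and slp1 had 7.03 and 6.13 RPKM and 7.69 and 6.30 RPKM at 17–17.5 h, against 91.7 to 96.6 RPKM and 86.6 to 89.97 RPKM at 2–4 h. The pair-rule gene hry was the exception in direction, with 76.2 and 82.4 RPKM at 17–17.5 h, against 32.6, 32.5 and 30.5 RPKM at 2–4 h (log2 fold change 1.32 ± 0.06, adjusted p = 1.5e-06). Of 27 dorsoventral genes, 13 were over 4-fold lower. The mesoderm genes twi and sna had 3.44 and 3.40 RPKM and 13.8 and 12.2 RPKM at 17–17.5 h, against 67.2 to 77.9 RPKM and 70.4 to 76.0 RPKM at 2–4 h, with twi under CG9897 and asRNA:CR42742. In the other direction, dl, the maternal NF-kappaB gene, had 31.6 and 34.5 RPKM at 17–17.5 h. At 2–4 h it had 0.493, 0.316 and 0.594 RPKM, from 110, 32 and 137 counts. The estimated counts of dl were not whole in 3 of these 5 libraries, though no overlapping gene is annotated, and its value is uncertain. The 8 Hox genes stayed within 4-fold, as abd-A with 28.0 and 31.5 RPKM at 17–17.5 h, against 13.8, 12.6 and 13.7 RPKM at 2–4 h, while Ubx, with 9.78 and 11.3 RPKM, against 11.9, 15.6 and 12.3 RPKM, passed no test (log2 fold change −0.32 ± 0.14, adjusted p = 0.063) but was called lower with upper-quartile factors (−0.63, adjusted p = 0.0039).

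Genes that switch on at the start of zygotic transcription and shape the first cells gave the lowest list median, −5.67. Of 15 tested, 8 were over 4-fold lower and 14 were lower. The gene term had 0.216 and 0 RPKM at 17–17.5 h, against 296, 337 and 327 RPKM at 2–4 h. SNCF had 26 and 2 counts at 17–17.5 h, against 6596, 3579 and 6997 counts at 2–4 h, and overlaps CG14111 and asRNA:CR45886. The genes halo and slam, which serve lipid-droplet transport and cellularization and were named after their values were seen, had 0.343 and 0.184 RPKM and 4.23 and 3.66 RPKM at 17–17.5 h, against 255 to 343 RPKM and 270 to 315 RPKM at 2–4 h.

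Maternal genes moved less as a class. Of 22 axis and germ plasm genes, 7 (31.8%) were over 4-fold lower and 3 (13.6%) over 4-fold higher, with a median log2 fold change of −1.11. Among all tested genes, 18.3% were over 4-fold lower and 33.9% over 4-fold higher, and the median was 0.27. The piRNA gene aub had 2.26 and 1.75 RPKM at 17–17.5 h, against 22.3, 21.8 and 22.3 RPKM at 2–4 h, and lies under TTLL4A. The germ-line gene vls had 3.79 and 4.38 RPKM at 17–17.5 h, against 38.4, 34.8 and 37.1 RPKM at 2–4 h, and lies under lok. Against them stood tsl, with 11.7 and 12.3 RPKM at 17–17.5 h, against 0.672, 0.832 and 0.786 RPKM at 2–4 h. Of 20 genes for egg activation and the control of maternal RNA, 7 (35%) were over 4-fold lower. Among them, the translational repressor gene me31B had 58.0 and 56.7 RPKM at 17–17.5 h, against 543, 625 and 576 RPKM at 2–4 h. The other gene of this list named by level, plu, had 6.75 and 4.10 RPKM at 17–17.5 h, against 23.9, 26.7 and 23.1 RPKM at 2–4 h, and orb2, the 1 member over 4-fold higher (overlapping CG43783), had 1.81 and 1.71 RPKM, against 0.0842, 0.0784 and 0.0909 RPKM.

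The 10 genes with the highest level among those over 4-fold lower included genes of protein synthesis, the cytoskeleton and chromatin. RpS3A had 453 and 445 RPKM at 17–17.5 h, against 2458, 2512 and 2515 RPKM at 2–4 h, and the tubulin gene betaTub56D had 393 and 386 RPKM, against 2505, 2160.2 and 2556 RPKM. The chromatin protein gene Df31 had 207 and 157 RPKM at 17–17.5 h, against 2282, 2351 and 2297 RPKM at 2–4 h, and Sumo had 182 and 162 RPKM, against 1306, 1232 and 1247 RPKM. The translation factor gene eEF1beta had 163 and 156 RPKM at 17–17.5 h, against 912, 868 and 920.4 RPKM at 2–4 h. The nuclear envelope gene kuk had 31.7 and 21.0 RPKM at 17–17.5 h, against 849, 874 and 874 RPKM at 2–4 h. CG13427 and CG4440 differed between the 17–17.5 h libraries, with 6.33 and 0.429 RPKM for CG13427 and 5.50 and 0.280 RPKM for CG4440 at 17–17.5 h, against 1143.5 to 1225 RPKM and 784 to 864 RPKM at 2–4 h.

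Most genes of the ribosome stayed within 4-fold. Of 89 tested cytosolic ribosomal protein genes, 20 were higher, 49 lower and 20 passed neither test, with 1 over 4-fold higher and 3 over 4-fold lower and a median log2 fold change of −0.29, which lies within the shift that normalisation can give. The paralog gene RpS5b had 11.05 and 10.4 RPKM at 17–17.5 h, against 277, 251 and 295 RPKM at 2–4 h, and RpL22-like went the other way, with 2.63 and 3.34 RPKM, against 0.0936, 0.0515 and 0.159 RPKM. The ribosome biogenesis genes were lower at 17–17.5 h than at 2–4 h for 15 of 21, with 2 over 4-fold lower and a median of −0.67, yet 21 of 21 were higher than at 14–14.5 h, with a median of 0.78. Nopp140, a nucleolar protein gene that overlaps P5CDh1, had 277, 262 and 274 RPKM at 2–4 h, 43.8 and 44.3 RPKM at 14–14.5 h and 61.0 and 59.2 RPKM at 17–17.5 h. Nnp-1, another ribosome biogenesis gene, had 125, 130.1 and 129.8 RPKM at 2–4 h, 17.7 and 18.2 RPKM at 14–14.5 h and 26.8 and 24.5 RPKM at 17–17.5 h.

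Heat shock genes did not move as a group: of 20 tested, 8 were higher and 6 lower, beside 49.2% and 42.3% of all tested genes. Over 4-fold higher were 4 (20%) and over 4-fold lower 3 (15%), beside 33.9% and 18.3% of all tested genes. The mitochondrial chaperone gene Hsp60A had 128 and 127 RPKM at 17–17.5 h, against 14.5, 10.8 and 15.9 RPKM at 2–4 h, and Hsc70-5 had 112 and 112 RPKM, against 23.7, 22.4 and 25.6 RPKM. Hsp22 had 1.61 and 0.0199 RPKM at 17–17.5 h, against 11.1, 11.1 and 11.3 RPKM at 2–4 h, and overlaps CG4456.

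Of the 11633 tested genes, 997 passed no test between the windows, and for 290 of these the 95% interval of the fold change ran from no more than 20% lower to no more than 25% higher. The 5 with the highest level were ribosomal protein genes. RpL6 had 1781 and 1860 RPKM at 17–17.5 h, against 1769, 1603.5 and 1800.1 RPKM at 2–4 h (log2 fold change 0.08 ± 0.09), and the log2 fold changes of RpL40, RpS15Aa, RpL36A and RpS28b were 0.05, 0.14, −0.11 and −0.04, with RpL36A and RpS28b overlapping CCDC53 and CG15317. The sign of a change this small, and whether it is called, turns with the normalisation: with upper-quartile factors RpL6, RpL40, RpL36A and RpS28b were called lower, by log2 fold changes of −0.23 to −0.42.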

How the data were processed

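Whole-embryo polyA RNA was measured in 11 libraries, of which the 5 at 17–17.5 h and 2–4 h and the 2 at 14–14.5 h entered the fits. Per library, the authors deposited estimated counts for each gene and TPM values scaled to the same targets. Both came from Kallisto (version not given in the sources used here), run on whole gene spans of the dm6 genome after base calling with CASAVA 1.8.2. Of 17625 annotated genes, 17502 had a length equal to the span. Between 18.7% and 21.7% of the estimated counts of a library were not whole, within 0.01. Gene symbols, coordinates and exon lengths came from the Ensembl annotation of the same genome.

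Estimated counts were rounded and tested in edgeR 4.0.16 (R 4.3.3) with filterByExpr, TMM factors and the two-sided quasi-likelihood F-test with Benjamini-Hochberg adjustment, on the 5 libraries of the main comparison, which leave 3 residual degrees of freedom, and on the 4 libraries of 17–17.5 h and 14–14.5 h. The standard error of a fold change was taken as its size over the square root of F. RPKM values use exon length and the factors of the main comparison. The 14–14.5 h libraries were set on that scale through the 17–17.5 h libraries common to both fits. Floors of 3 counts cover counting error only, since PCR copies are not independent molecules, while the 95% intervals of fold changes come from the fit and include the spread between libraries. Replicate libraries differed by more than sampling noise, and none were merged.

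The members and gene lists were chosen with earlier results of these data known. Named genes were, for each list, the 2 members called over 4-fold in the direction of most calls with the highest level, or the 2 highest where none was called; the member with the largest fold the other way; the 10 highest in each window; the 5 highest of those higher than in both other windows and of those that fell after 14–14.5 h; and the 5 steadiest. Further genes are said in the text to have been chosen after their values were seen. The entries AANAT1, tyl, cypl, FASN3, nvd, Orc1, RPA2 and RPA3 of the lists matched no gene symbol and were not analysed here. Alternatives were DESeq2 1.42.0, other factors, no filter, all 11 libraries, no mitochondrial genes, the replicate number as a block, a test against 4-fold, deposited TPM for the levels, and each library left out. Leaving out overlapping genes, and leaving out replicate 1 of both windows, were chosen after the data were examined. The scripts were tested on simulated data. Python 3.11.15 with pandas 2.3.3, numpy 2.4.6, scipy 1.17.1 and matplotlib 3.10.9 was used. Promoter motifs could not be searched, since no sequence of this genome was used here.

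Whether replicate numbers pair the libraries cannot be told from these data. Deviations from the window means correlated at 0.21 and 0.03 for libraries with the same number and between −0.21 and 0.19 for the others. The deviations of the 2 libraries at 17–17.5 h are mirror images of each other. The correlations of the others therefore follow in part from those of the same number and give no independent comparison.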

Additional observations from a re-analysis of the deposited data

How the results depend on the processing

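Of 82 recomputed counts of genes, 77 stayed within 1.5 times the reported count. The other 5 came from leaving out overlapping genes, which removes 4966 of the 11633 tested genes: 3172 genes were then higher and 3009 lower at 17–17.5 h than at 2–4 h, 2340 were over 4-fold higher, and 2156 were higher and 2152 lower than at 14–14.5 h. As shares of the 6667 genes tested, 35.1% were then over 4-fold higher and 21.7% over 4-fold lower, against 33.9% and 18.3%. With fewer members tested, it also lowered the list counts of members over 4-fold changed, as for splicing (11 lower), muscle (16 higher), the synaptic list (15 higher), tanning (6 higher), glycolysis (9 higher), the ecdysone list (6 higher and 3 lower) and the zygotic list (3 lower). Leaving out each library in turn gave 5241 to 5541 genes higher, 4693 to 5289 lower, 3729 to 3925 over 4-fold higher and 2187 to 2424 over 4-fold lower than at 2–4 h, and 3027 to 3547 higher and 2493 to 3261 lower than at 14–14.5 h. The replicate block gave 5541 higher, 4681 lower, 3962 over 4-fold higher and 2122 over 4-fold lower than at 2–4 h, and 3426 higher and 3260 lower than at 14–14.5 h. Of the Osiris genes, 12 were over 4-fold higher than at 2–4 h with the replicate block and 10 with all 11 libraries, against 5, and the block called Osi6 (2.88, adjusted p = 0.00042) and Osi7 (3.43, adjusted p = 0.00015) higher.

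Without 17–17.5 h replicate 1, the log2 fold changes against 2–4 h turned negative for Osi15 (−0.39), Osi6 (−2.35) and Osi7 (−2.04), against 4.48, 3.39 and 3.88 with all libraries, where Osi6 and Osi7 passed no test without the block. Their highest values with a library left out were 7.17, 8.62 and 9.01, without 2–4 h replicate 1. The small changes of steady genes changed sign. RpL6 was at −0.12 with all 11 libraries, −0.19 with no filter and −0.22 to 0.12 with a library left out. RpL40 was at −0.15 with all 11 libraries and −0.23 to 0.043 with a library left out. RpS15Aa was at −0.051 with all 11 libraries, −0.12 with no filter, −0.17 with upper-quartile factors and −0.14 to 0.17 with a library left out. RpS28b was at 0.0044 with replicate 1 of both windows left out and was called lower with upper-quartile factors (−0.35), with no filter (−0.31), without 17–17.5 h replicate 2 (−0.32) and without 2–4 h replicate 2 (−0.30). With overlapping genes left out, RpL6 (−0.37), RpL40 (−0.40) and RpS15Aa (−0.31) were called lower (adjusted p = 0.0061, 0.0019 and 0.0054), while DESeq2 called RpS15Aa higher (0.13). Ubx was called lower under 9 alternatives, by −0.37 to −0.77. The cause of these changes was not tested. Depth limits low genes most in 2–4 h replicate 2, which had 14472809 counts, against 30897611 to 32523509 in the other 4 libraries of the main comparison.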
